A study of Mus musculus with 4 samples.

Results

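The respiratory chain genes described here are the nuclear genes for subunits of complexes I to V and for cytochrome c in 4 single-cell RNA libraries of mouse pancreatic tumours. They were taken by gene symbol: every symbol that begins with Ndufa, Ndufb, Ndufc, Ndufs or Ndufv and a digit, with Cox4 to Cox8, with Atp5 or with Uqcr, and in addition Sdha, Sdhb, Sdhc, Sdhd, Cyc1 and Cycs. This gave 87 genes of 32285 in the files: 38 for complex I, 4 for complex II, 9 for complex III, 18 for complex IV, 17 for complex V and 1 for cytochrome c. The rule used the symbols alone, although it was chosen with earlier results of these data known. The tumours came from KPC46, a mouse pancreatic ductal adenocarcinoma line kept as organoids, and were harvested from B6/129 F1J mice given the vehicle Cremophor (2 mice) or TAK-981 (Subasumstat, an inhibitor of the SUMO-activating enzyme; 2 mice). Each library came from 1 mouse, so n = 2 per group throughout, and dose, duration, sex and age are not given in the labels. All groups share the tumour line and the strain, so the tumour cells stand for 1 line. Per the labels, dead cells were removed from suspensions of low viability, and which of the 4 were treated in this way is not stated.

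The respiratory chain sits in the inner mitochondrial membrane. Complex I takes electrons from NADH and complex II from succinate, complex III passes them to cytochrome c, complex IV hands them to oxygen, and complex V uses the resulting proton gradient to make ATP. A few large subunits carry the catalytic centres of complexes I, III and V, and many small accessory subunits, a large share of them encoded by very short messenger RNAs, surround them. A further set of core subunits is encoded by mitochondrial DNA, whereas all subunits of complex II are nuclear. The nuclear factors NRF1, GABPA (an ETS factor), YY1, Sp1 and the ERR receptors are known regulators of these promoters.

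The members' transcripts were short. The median transcript length, taken per gene as the median exonic length of its GENCODE vM21 basic protein-coding transcripts (of all its transcripts where it has no such one, as for Ndufb1-ps), was 730 nt over the 87 members and 2330.5 nt over the other nuclear protein-coding genes. Transcripts under 800 nt, called short below, were found for 51 members: 20 of 38 in complex I, 0 of 4 in complex II, 5 of 9 in complex III, 16 of 18 in complex IV and 10 of 17 in complex V. No UMI of Cox7b2, Cox8b or Cox8c was found in 13862 cells, which allows a share of cells with a UMI of up to 0.0216% each, counting error only.

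The 4 libraries held between 24411656 and 63898758 UMIs (unique molecular identifiers, counts of captured molecules) and between 2214 and 4408 cells after filtering. Depth and mitochondrial RNA differed between the groups: the median UMIs per cell were 2269 and 4152.5 (vehicle) against 5024.5 and 12831 (TAK-981), and the median mitochondrial share was 2.93 and 2.71% against 6.90 and 5.11%. No pair of libraries shared more than 10 cell barcodes. The labels name no batch, and any difference in handling between the groups cannot be told apart from the drug. The p-values rest on the spread between 2 mice in each group. Cells were clustered without the members, and clusters were named from marker lists as resembling a cell type. The epithelial-like class (4574 cells) had UMIs of Krt8 in 98.1%, Krt18 in 98.2%, Krt19 in 94.0% and Cdh1 in 49.0% of cells. However, its defining surface markers were nearly absent, with Epcam in 0.98%, Cldn7 in 0.70% and Cldn4 in 0.52% of cells, so the class is epithelial-like by its keratins. Different clusters held most of this class in each group: cluster 4, led by the hormone gene Prl, held 476 of 710 and 1332 of 1573 vehicle cells, whereas clusters 3, 15 and 21 together held most TAK-981 cells.

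The members took a smaller share of nuclear-encoded UMIs in TAK-981 tumours than in vehicle tumours in 5 of 7 classes. In epithelial-like cells the share was 3.18 and 3.17% (vehicle) against 2.10 and 1.96% (TAK-981), 1.56-fold lower on average. Both TAK-981 libraries lay far below both vehicle libraries. The exact two-sided permutation p was 0.333, the smallest that 2 against 2 mice can give. By the same test p was 0.333 for each tested share below in which the groups did not overlap. For the members' share in T or NK-like and neutrophil-like cells it was 0.667 each. Macrophage-like cells had 2.22 and 2.20% against 1.63 and 1.67%. Fibroblast-like cells had 2.18 and 2.34% against 1.72 and 1.52%, dendritic-like cells 2.54 and 2.42% against 1.73 and 1.64%, and endothelial-like cells 2.07 and 2.16% against 1.63 and 1.48%. In these 4 classes too the groups did not overlap. In T or NK-like cells (1.80 and 2.29% against 1.92 and 1.74%) and neutrophil-like cells (0.932 and 1.43% against 1.04 and 0.930%) the groups overlapped. A further 2499 cells lay in clusters left unnamed and entered none of the tests by class. The members' share in them was 3.45 and 3.55% (vehicle) against 2.47 and 2.67% (TAK-981), above that of epithelial-like cells in each library.

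**Figure D1:**
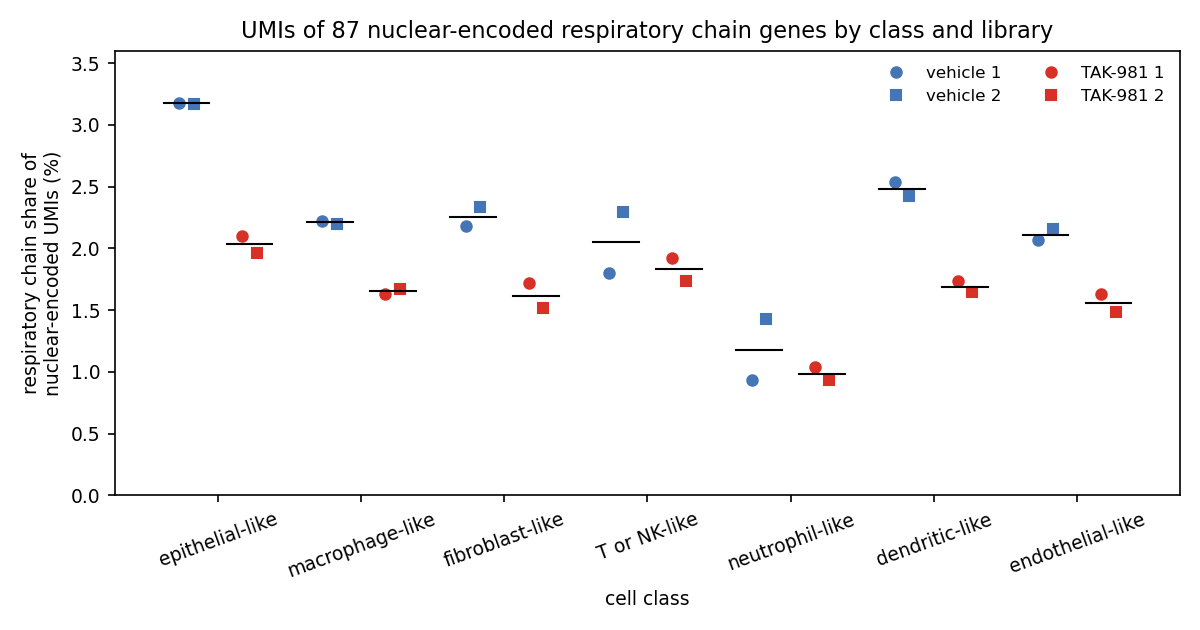
Share of nuclear-encoded UMIs taken by the 87 respiratory chain genes (y axis, percent) in each cell class (x axis). Each point is 1 library and each line a group mean of 2 libraries; the groups are apart in epithelial-like, macrophage-like, fibroblast-like, dendritic-like and endothelial-like cells and overlap in T or NK-like and neutrophil-like cells.

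In epithelial-like cells the lower share was uneven across complexes. Complex IV went from 0.891 and 0.921% to 0.463 and 0.485%, and complex III from 0.278 and 0.269% to 0.150 and 0.147%. Complex I went from 1.02 and 1.05% to 0.669 and 0.607%, and complex V from 0.938 and 0.890% to 0.743 and 0.657%. The 4 genes of complex II went the other way, from 0.0244 and 0.0264% to 0.0492 and 0.0390%. The share of the mitochondrially encoded chain genes was also higher, at 3.87 and 3.70% of all UMIs (vehicle) against 4.47 and 5.48% (TAK-981), so that there were 1.27 and 1.21 mitochondrially encoded UMIs per member UMI in vehicle against 2.23 and 2.96 under TAK-981. On the TMM scale used for single genes, which divides by library totals corrected for composition, 10 of the 13 mitochondrially encoded genes had a negative log2 fold change (median -0.23), so the direction depends on the scaling. These are shares of captured RNA: fewer copies of member RNA per cell and more of other RNA cannot be told apart.

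Other measures moved with the groups in the same cells. Cytosolic ribosomal protein genes, whose transcripts are mostly short, went from 36.2 and 37.6% of nuclear-encoded UMIs to 21.3 and 24.9%. All non-member genes with short transcripts, ribosomal ones included, went from 31.7 and 32.8% to 16.9 and 19.9%. These sets share the short ribosomal genes. Without the ribosomal genes, short non-members went from 10.98 and 11.38% to 8.31 and 8.76%, a smaller fall than with them, which was not tested. Median depth was 16959 and 11239 UMIs (vehicle) against 21372 and 24021 (TAK-981), and the median mitochondrial share was 3.74 and 3.65% against 4.84 and 5.33%. Depth was also higher under TAK-981 in the other classes, for example 3043.5 and 3262 against 8997 and 7866 UMIs in macrophage-like cells. The summed level of the 10 macrophage markers in the epithelial-like sums was 208 and 146 CPM (counts scaled to a common library total; vehicle) against 1214 and 343 CPM (TAK-981), with none of the 10 at 0. Their part in the result was not tested. Within cluster 3 alone the members' share was 3.04 and 2.85% against 2.05 and 1.95%, and within cluster 4 alone 3.23 and 3.17% against 2.04 and 2.08%, so the difference was present inside each cluster. Tested within 1 cluster, 35 of 80 members fell in cluster 3 and 43 of 80 in cluster 4, against 2.46 and 3.76% of all genes.

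Gene by gene, 38 of the 80 members tested in epithelial-like cells fell under TAK-981 and 0 rose (edgeR quasi-likelihood F test on UMIs summed per library, adjusted p under 0.05 over all genes), against 1.98% of all 12643 tested genes called lower and 0.815% called higher. Both TAK-981 libraries were below both vehicle libraries for 58 of the 80, against 27% of all genes. The median log2 fold change of the 80 was -1.14, and that of all genes tested was 0.01. Without vehicle replicate 2 fewer members fell, and the median over members was -1.12. The called members lay almost wholly among short transcripts: 34 of 45 short members fell (median -1.92), against 4 of 35 members of at least 800 nt (median -0.01). All 13 members under 500 nt that were tested fell, with a median of -2.52. The fall reached 21 of 32 members from 500 to under 800 nt, 2 of 13 from 800 to under 1200 nt, and 2 of 22 of at least 1200 nt. Across the 80 members, Spearman's rho between transcript length and log2 fold change was 0.75, a description over genes that share the same 4 libraries. The 4 longer members that fell, named after their values were seen, were Ndufa13 (1251 nt), Ndufb2 (2413 nt, with a shortest annotated transcript of 455 nt), Ndufb4 (971 nt) and Cox7b (1001 nt).

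**Figure D2:**
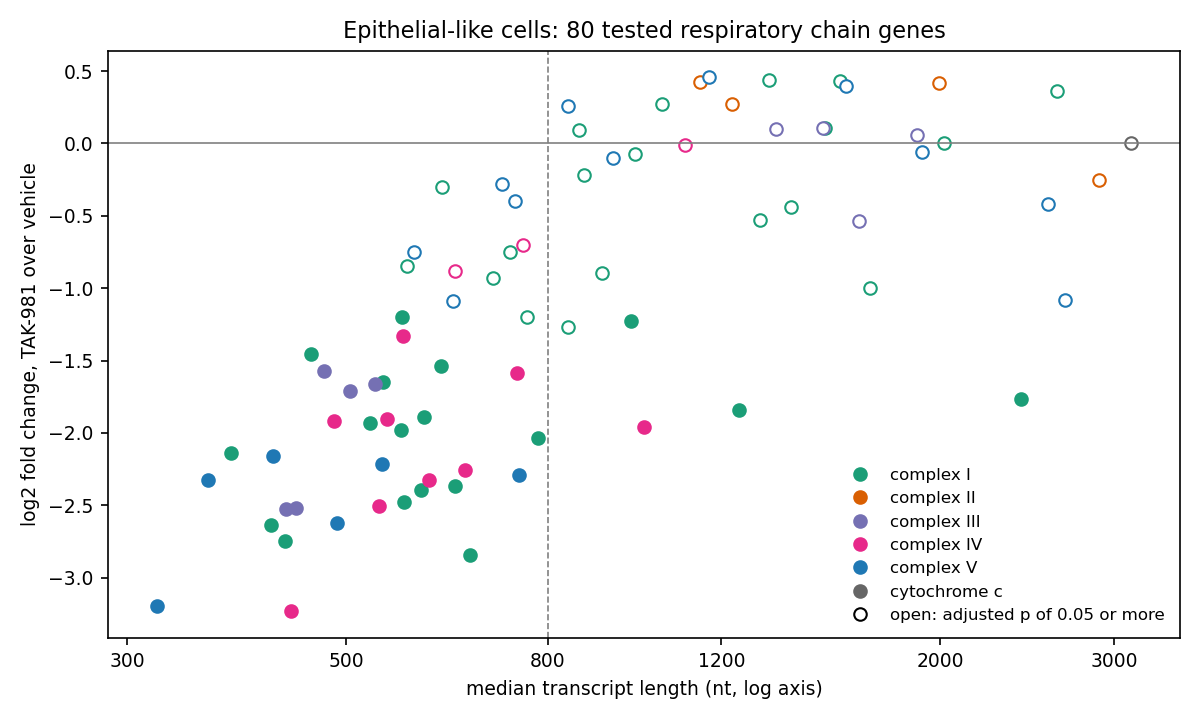
Log2 fold change of TAK-981 over vehicle in epithelial-like cells (y axis) against median transcript length in nt (x axis, log scale) for the 80 tested members, 1 point per gene and coloured by complex. Filled points have an adjusted p under 0.05; the filled points crowd left of the dashed line at 800 nt, where 34 of 45 members fell, against 4 of 35 to its right.

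Short genes outside the respiratory chain also leaned lower, though less. Of 847 tested non-members under 800 nt, 122 fell and 3 rose, with a median of -0.49. Among 333 of them at the members' kind of level (log2 CPM of at least 5), 96 fell with a median of -0.65. Of 81 cytosolic ribosomal protein genes 40 fell (median -1.44), a share close to that of all members (38 of 80, median -1.14). Of 78 mitochondrial ribosomal protein genes 8 fell (median -0.16). A fit with the genome-wide trend of fold change on transcript length taken out, with the trend drawn from non-members, left 7 of the 38 calls, against 0.285% of all genes called lower: Ndufa5, Ndufb2, Ndufc1, Cox6c, Cox7b, Atp5j2 and Atp5mpl. The median of the short members was then -0.97. With the trend drawn on the shortest transcript of each gene instead, an alternative chosen after seeing the data, 33 calls remained, against 1.28% of all genes.

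In complex I, the 7 nuclear subunits of the catalytic core did not pass the test in either direction, with a median log2 fold change of 0.11. Ndufs1, the largest of them, had 38.8 and 34.5 CPM (vehicle) against 49.9 and 44.3 CPM (TAK-981). Both TAK-981 libraries lay above both vehicle libraries, with a log2 change of 0.36 ± 0.21 (SE, edgeR adjusted p = 0.385). Ndufv1, which binds NADH and flavin, overlapped between the groups (95.9 and 144 against 154 and 104 CPM).

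The accessory subunits of complex I went down in large part: 17 of 29 fell and 0 rose, with a median of -1.54. Ndufa3, a small membrane-spanning subunit, had 181 and 146 CPM (vehicle) against 18.9 and 29.6 CPM (TAK-981). Ndufa1, another membrane subunit needed for assembly, had 311 and 242 CPM against 43.2 and 45.6 CPM. Ndufb1-ps, the files' symbol for the locus of the membrane subunit Ndufb1, had 396 and 248 CPM against 31.6 and 57.8 CPM. In all 3 genes the TAK-981 libraries stood well below the vehicle libraries, and the log2 fold changes were -2.75 ± 0.30, -2.64 ± 0.24 and -2.85 ± 0.39 (SE, edgeR adjusted p = 0.0171, 0.0171 and 0.0239). Ndufa2 (987 and 1060 against 143 and 224 CPM), Ndufa5 (278 and 239 against 46.7 and 51.6 CPM) and Ndufv3 (363 and 528 against 85.8 and 86.8 CPM) fell by a like amount, by 2.48, 2.40 and 2.37 on the log2 scale. Ndufa4, named for complex I but known as a subunit of complex IV, had 1064 and 851 CPM against 347 and 352 CPM and fell by 1.46 ± 0.23 (SE, edgeR adjusted p = 0.0315). The longer accessory subunits Ndufa9 (0.44) and Ndufa10 (0.01) did not pass the test.

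Complex II, also called succinate dehydrogenase, held 4 genes with transcripts of 1142 nt or more, and none was called. Sdha, the flavoprotein, had 55.4 and 63.0 CPM (vehicle) against 51.5 and 48.1 CPM (TAK-981), a log2 change of -0.25 ± 0.21 (SE, edgeR adjusted p = 0.54). Sdhb, the iron-sulphur subunit, had 89.2 and 102 against 153 and 103 CPM, and the membrane anchors Sdhc and Sdhd had 61.8 and 75.7 against 99.9 and 84.3 CPM, and 72.0 and 63.6 against 82.6 and 81.5 CPM. Except in Sdha, both TAK-981 libraries were above both vehicle libraries, and the log2 fold changes of Sdhb, Sdhc and Sdhd were 0.43, 0.42 and 0.28. These values are on the TMM scale. As a share of nuclear-encoded UMIs the genes of the complex together rose more, from 0.0244 and 0.0264% to 0.0492 and 0.0390%. The size of such changes thus depends on the scaling, and the sign of a small one, as in Sdha, may too.

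Complex III split by size. All 5 of its small subunits fell, with log2 fold changes from -2.53 to -1.58, whereas 0 of its 4 large proteins was called. Uqcr10, a small subunit beside cytochrome c1, had 727 and 718 CPM (vehicle) against 114 and 137 CPM (TAK-981), a log2 change of -2.53 ± 0.23 (SE, edgeR adjusted p = 0.0171), and Uqcr11 had 438 and 422 against 65.2 and 84.8 CPM (-2.52). The 2 vehicle libraries nearly coincided for both genes and lay far above the TAK-981 libraries. Cyc1, the cytochrome c1 that carries the electron onward, had 203 and 163 against 237 and 157 CPM and overlapped between the groups. The core proteins Uqcrc1 (-0.54) and Uqcrc2 (0.06) did not pass the test either. Cycs, cytochrome c itself, had 293 and 141 against 220 and 215 CPM, with a log2 fold change of 0.00 ± 0.35 (SE). The mouse genome holds processed copies of Cycs, and how reads shared with them were counted is not given in the sources used here.

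In complex IV, where all nuclear genes encode subunits around the catalytic core, 9 of 12 tested members fell and the median was -1.91. Cox7c, a membrane subunit, had 1145 and 992 CPM (vehicle) against 155 and 221 CPM (TAK-981), and Cox6c had 1231 and 1109 against 212 and 254 CPM. Cox8a, the common form of a small membrane subunit, had 1827 and 1976 against 453 and 561 CPM. These 3 genes fell by 2.51, 2.33 and 1.91 on the log2 scale (edgeR adjusted p = 0.0171 each), with no overlap between the groups. Cox6b1, Cox7a2 and Cox6a1 fell as well (-1.92, -2.26 and -1.33). Cox4i1, which joins the complex early in assembly, had 1500 and 1870 against 1108 and 960 CPM and was not called (-0.70 ± 0.23 SE, edgeR adjusted p = 0.154). DESeq2 did call it. Cox7a2l, known for joining complexes III and IV and longer at 1102.5 nt, had 400 and 551 against 428 and 515 CPM. Cox7a1, the heart and muscle form, was low in these cells and fell from 15.9 and 20.4 CPM to 1.03 and 2.66 CPM (-3.23 ± 0.47 SE, edgeR adjusted p = 0.0272).

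In complex V 6 of 17 members fell, 5 of them the small membrane subunits, among them Atp5k, subunit e at the dimer interface, which had 807 and 466 CPM (vehicle) against 43.2 and 95.4 CPM (TAK-981), a log2 change of -3.20 ± 0.47 (SE, 9.17-fold, edgeR adjusted p = 0.0283). Atp5mpl, a small membrane protein of the complex, had 331 and 262 against 45.8 and 50.2 CPM (-2.63 ± 0.24 SE, edgeR adjusted p = 0.0171). In the catalytic F1 head 1 of 5 members fell, the short Atp5e (421 nt, -2.16). The F1 subunits that form the catalytic hexamer, Atp5a1 (510 and 590 against 454 and 368 CPM) and Atp5b (475 and 547 against 539 and 440 CPM), were not called (-0.42 and -0.06). None of the 4 peripheral stalk genes was called, nor any of the 3 genes Atp5g1, Atp5g2 and Atp5g3 (-1.08, -0.75 and -0.28), which encode the same mature c-ring protein. Of these, Atp5g1 had an adjusted p of 0.0555 by edgeR, and DESeq2 called Atp5g1 and Atp5g2. Both TAK-981 libraries were below both vehicle libraries for 2 of the 3 c-ring genes and 2 of the 4 stalk genes, and a difference between the parts of the enzyme was not tested.

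**Figure D3:**
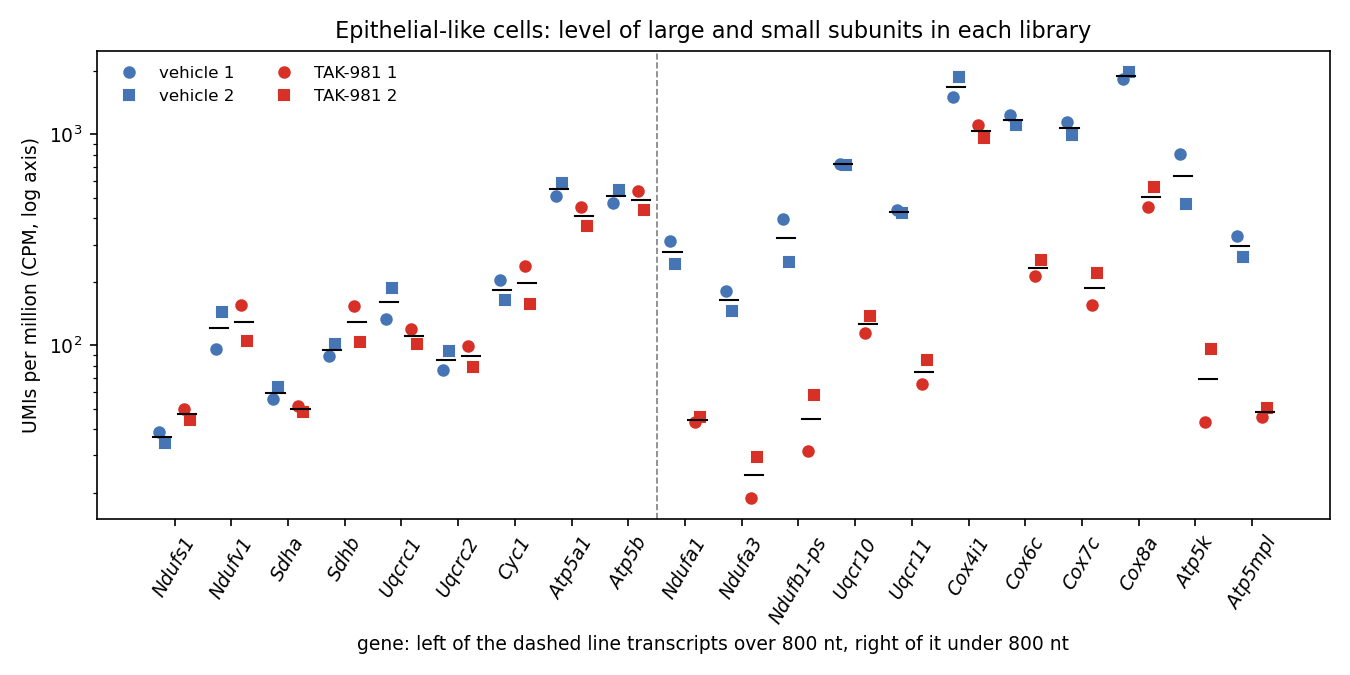
Level in CPM (y axis, log scale) of 20 members in epithelial-like cells, 1 point per library and a line at each group mean of 2 libraries. Left of the dashed line stand 9 subunits with transcripts over 800 nt, where the groups lie close together. Right of it stand 11 short subunits, where the TAK-981 points are lower in each gene. The genes shown are a selection: of all tested members, 34 of 45 short and 4 of 35 longer ones fell.

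Promoters were set beside these changes, since the members share known regulators. RefSeq promoter windows (GRCm38.p6, from 250 bases before to 50 after a start) matched 70 of the 87 members, with 75 windows. Of these, 70 had their start within 1000 bases of the annotated gene start. Letters of 5 motifs were searched on both strands, with NRF1 as GCGCA, any base, then GCGC, ETS as CCGGAAG, YY1 as AAGATGGCG, Sp1 as GGGCGG and ERR as CAAGGTCA. NRF1 letters stood in 24.0% of member windows and 4.60% of all 32851 windows, ETS letters in 22.7 and 8.86%, YY1 letters in 9.33 and 1.40%, ERR letters in 5.33 and 1.56%, and Sp1 letters in 40.0 and 35.7%. In the 21262 windows of protein-coding genes the shares were 6.38% (NRF1), 11.6% (ETS), 1.83% (YY1), 1.34% (ERR) and 46.2% (Sp1). The members' share of Sp1 letters thus lay below that of protein-coding genes. Matches of different motifs overlapped in 1 member window (ETS with Sp1). Among members with a window, NRF1 letters stood in 8 of 33 called lower and 9 of 34 not called, YY1 letters in 3 and 4, Sp1 letters in 12 and 15, ERR letters in 2 and 2, and ETS letters in 11 and 6. Each motif was thus found on both sides of the call, the ETS letters more often among members that fell, a difference that was not tested. A match is a description of the sequence and not a measured site. The stretches below are the 110 bases before the start (minus strand, written 5′ to 3′, motif letters in capitals) of 3 members that fell and 3 that were not called, shown because both kinds carry such letters. Ndufa5 and Atp5j each have a further window that is not shown, whose stretch holds none of the letters in Ndufa5 and opposite-strand Sp1 letters in Atp5j. Atp5k (chr5:108434400-108434509) and Ndufa5 (chr6:24527691-24527800) fell and have NRF1 letters, and Cox6a1 (chr5:115348959-115349068) fell and has Sp1 and then ETS letters, both on the opposite strand. Sdha (chr13:74350241-74350350) was not called and has NRF1 letters at 3 places. Sdhd (chr9:50603850-50603959) has NRF1 and opposite-strand ETS letters, and Atp5j (chr16:84834977-84835086) has YY1 and then ETS letters.
Atp5k: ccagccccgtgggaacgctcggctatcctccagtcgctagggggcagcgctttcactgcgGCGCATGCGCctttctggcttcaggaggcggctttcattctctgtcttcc
Ndufa5: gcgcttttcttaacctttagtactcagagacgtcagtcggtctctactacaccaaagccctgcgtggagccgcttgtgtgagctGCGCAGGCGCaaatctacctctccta
Cox6a1: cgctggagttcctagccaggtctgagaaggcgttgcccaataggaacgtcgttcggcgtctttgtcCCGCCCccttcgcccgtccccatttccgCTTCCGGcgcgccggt
Sdha: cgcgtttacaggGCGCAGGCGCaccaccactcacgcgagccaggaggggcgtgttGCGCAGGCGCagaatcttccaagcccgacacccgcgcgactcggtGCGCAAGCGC
Sdhd: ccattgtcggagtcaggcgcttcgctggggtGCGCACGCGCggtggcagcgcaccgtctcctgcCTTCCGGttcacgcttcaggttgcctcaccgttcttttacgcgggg
Atp5j: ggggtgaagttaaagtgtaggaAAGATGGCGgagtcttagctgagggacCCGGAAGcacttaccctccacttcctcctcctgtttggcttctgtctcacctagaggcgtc
The NRF1 letters began 50 bases before the start in Atp5k, 26 in Ndufa5, 98, 55 and 10 in Sdha and 79 in Sdhd, and the ETS letters 16 bases before it in Cox6a1, 46 in Sdhd and 61 in Atp5j. The Sp1 letters began 44 bases before it in Cox6a1 and the YY1 letters 88 in Atp5j.

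Short subunits were lower in the other cell classes too, although fewer passed the test there. These classes come from the same 4 mice, so they are not independent repeats. Fibroblast-like cells had 20 of 81 members called lower and 0 higher, against 0.79 and 0.256% of all genes, and groups that did not overlap downward for 48, against 20.9% of all genes. Atp5k had 380 and 298 CPM (vehicle) against 35.2 and 79.2 CPM (TAK-981) there (-2.56 ± 0.41 SE, edgeR adjusted p = 0.0285), and Ndufa3 had 233 and 170 against 26.2 and 44.4 CPM (-2.50). Ndufb1-ps (-2.38), Uqcr11 (-2.18) and Atp5mpl (-2.10) followed. In fibroblast-like cells 19 of the 45 short members fell (median -1.47) and 1 of the 36 longer ones (Ndufb2; median 0.25). Without vehicle replicate 1 or 2 fewer such calls remained, and without TAK-981 replicate 1 or 2 none did. Short-member medians in these 4 fits, in that order, were -1.43, -1.24, -1.42 and -1.34. With the length trend taken out there were 0 such calls.

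In dendritic-like cells 23 of 79 members fell and 0 rose, against 3.59 and 0.526% of all genes. Without vehicle replicate 1 fewer fell, and the short-member median was -1.16. Uqcr11 had 433 and 380 CPM (vehicle) against 76.6 and 68.9 CPM (TAK-981), a log2 change of -2.49 ± 0.33 (SE, edgeR adjusted p = 0.0054). Atp5k and Ndufb1-ps (-2.55 each), Ndufa3 (-2.46) and Atp5mpl (-2.45) were the others with the largest changes. In endothelial-like cells, of which TAK-981 2 held 15, 12 of 79 members fell and 0 rose, against 1.18 and 0.641% of all genes. Without TAK-981 replicate 2 more members and more of all genes fell, and the short-member median was -1.48. The number called was 23 without the filter on low counts, 19 with at least 1000 UMIs per cell and 8 without doublet removal. Of all genes, 185 of 13880, 76 of 4642 and 37 of 5466 were called lower in these fits. Ndufb1-ps had 601 and 333 against 47.3 and 80.8 CPM there (-2.97 ± 0.46 SE, edgeR adjusted p = 0.0148), followed by Atp5k (-2.66), Ndufb2 (-2.52), Atp5e (-2.21) and Uqcr11 (-2.19). With the length trend taken out, 2 dendritic-like and 3 endothelial-like calls were made, against 31 of 3424 and 32 of 4680 genes called lower.

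Markers of other cell types moved with the groups in these sums too. The summed level of the 10 macrophage markers was 282 and 480 CPM (vehicle) against 2100 and 780 CPM (TAK-981) in fibroblast-like, 1329 and 1294 against 4285 and 2957 CPM in dendritic-like, and 96.9 and 306 against 1664 and 979 CPM in endothelial-like cells. The 10 acinar markers summed to 14.9 and 6.23 against 190 and 128 CPM, to 12.3 and 0 against 307 and 158 CPM, and to 15.5 and 0 against 416 and 120 CPM in the same order. At most 3 of the 10 macrophage markers were at 0 in any of these sums, and 8 to 10 of the 10 acinar markers in the sum where most were. In epithelial-like cells the acinar markers summed to 19.1 and 5.09 against 139 and 70.7 CPM. The part of these markers in the results was not tested.

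No member was called by edgeR in macrophage-like, T or NK-like or neutrophil-like cells. In macrophage-like cells 0 of all 10604 tested genes were called lower (0%), 40 of 83 members were lower at an unadjusted p under 0.05, against 7.46% of all genes, and DESeq2 called 34 lower, against 1.93%. Ndufa3 had 259 and 179 CPM (vehicle) against 30.6 and 50.8 CPM (TAK-981), a log2 change of -2.42 ± 0.32 (SE, edgeR adjusted p = 0.0626). Atp5k had 419 and 297 against 41.4 and 97.5 CPM (-2.37). edgeR did call some members, and some other genes, in macrophage-like cells without TAK-981 replicate 2 or without vehicle replicate 1. Short-member medians were then -1.53 and -1.25. In T or NK-like cells 30 of 79 members had an unadjusted p under 0.05 and were lower, against 7.02% of all genes, and DESeq2 called 6, against 2.03% of the 1922 genes to which it gave an adjusted p. edgeR called 0.0238% of all genes lower there and 0% higher. With any 1 of the 4 libraries left out, it called some members and some other genes lower. Short-member medians were then -1.27, -0.92, -0.94 and -1.19 (without vehicle 1 and 2, TAK-981 1 and 2). In neutrophil-like cells 12 of 72 members had an unadjusted p under 0.05 and were lower, against 4.98% of all genes, DESeq2 called 0, against 0.531% of the 2450 genes to which it gave an adjusted p, and edgeR called 0.0321% of all genes lower and 0.128% higher. Without TAK-981 replicate 1 or 2 it called few members there, among other genes, and short-member medians were -0.69 and -0.98.

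Short and long members parted in every class. The median log2 fold changes of short and longer members were -1.24 and 0.20 in macrophage-like, -1.07 and 0.40 in T or NK-like, -0.77 and 0.63 in neutrophil-like, -1.37 and 0.12 in dendritic-like, and -1.29 and 0.24 in endothelial-like cells. The median of all genes tested lay between -0.05 and 0.04 in these classes. Of 72 members tested in all 7 classes, 36 had a negative log2 fold change in each class and 7 a positive one in each. For 28 of the 72, both TAK-981 libraries were below both vehicle libraries in all 7 classes. Of the 1878 genes tested in all 7 classes, members included, 15.9% were negative in each, 16.8% positive in each, and 5.01% had both TAK-981 libraries below in each. In a single class the latter held for 20.9 to 27% of all genes (22.3, 21.8, 23.2, 21.5 and 23.5% in macrophage-like, T or NK-like, neutrophil-like, dendritic-like and endothelial-like cells). Complex II was on the positive side throughout, with medians from 0.35 in epithelial-like to 0.87 in T or NK-like cells, and none of its genes called in any class.

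The size of the change was compared between classes in 1 fit over the 5 main classes, with the library as a block. The test called 0 of 82 members for a different effect in epithelial-like cells than in macrophage-like, fibroblast-like, T or NK-like or neutrophil-like cells, against 0.963, 0.43, 0.0655 and 1.28% of all genes. At an unadjusted p under 0.05, 12, 1, 40 and 20 members had a more negative effect in epithelial-like cells, against 2.04, 1.38, 4.91 and 3.38% of all genes. The median difference over members was -0.37, -0.36, -0.80 and -0.47, and over all genes 0.08, 0.07, -0.07 and 0.51. No other tool was run for this test. Calls among members appeared against T or NK-like cells without TAK-981 replicate 2, and against neutrophil-like cells without TAK-981 replicate 1. Their shares were near those of all genes. The median differences over members were then -0.86 and -0.76, and over all genes -0.04 and 0.52.

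**Figure D4:**
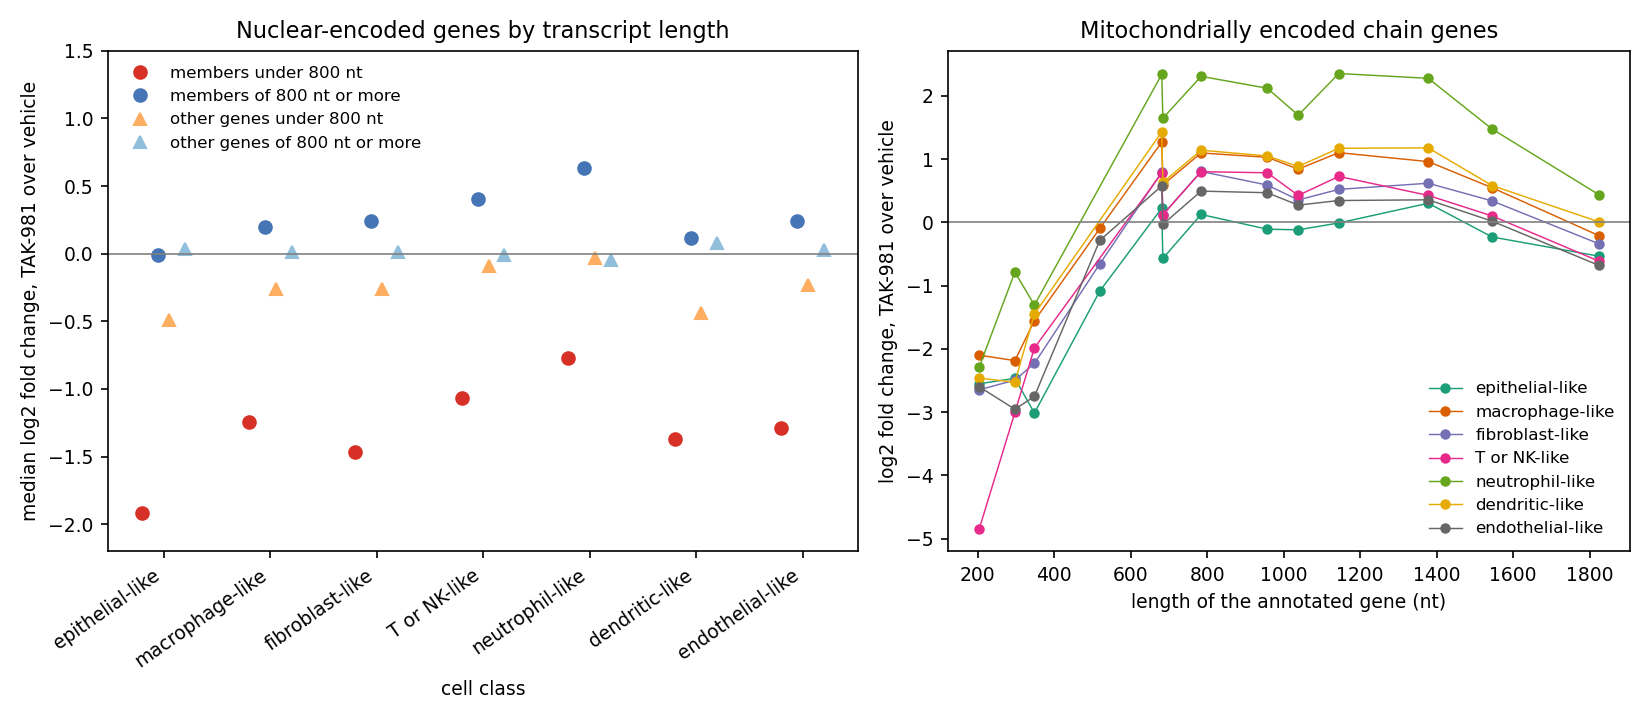
Left, median log2 fold change (y axis) by cell class (x axis) for short and longer members (circles) and for other genes of the same lengths (triangles). Right, log2 fold change (y axis) of the mitochondrially encoded chain genes against the length of the annotated gene in nt (x axis), 1 point per gene and 1 line per class; the 3 genes under 400 nt lie below 0 in all 7 classes.

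Mitochondrial DNA encodes 13 further subunits, and the smallest of these were lower as well. The 3 genes under 400 nt, a limit chosen after the values were seen, are mt-Atp8 (204 nt), mt-Nd4l (297 nt) and mt-Nd3 (348 nt). In epithelial-like cells mt-Nd3, a complex I core subunit, fell from 728 and 822 CPM to 75.1 and 116 CPM (-3.02 ± 0.30 SE, edgeR adjusted p = 0.0171). mt-Atp8 had 199 and 93.9 against 15.7 and 34.0 CPM (-2.55, adjusted p = 0.0545), and mt-Nd4l had 347 and 218 against 19.8 and 82.0 CPM (-2.47, adjusted p = 0.1). For these 3 genes both TAK-981 libraries lay below both vehicle libraries in each of the 7 classes. The other 10 had a median of -0.11 in epithelial-like cells, with 0 called.

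In dendritic-like cells 5 larger mitochondrially encoded genes (mt-Nd1, mt-Co3, mt-Cytb, mt-Nd4 and mt-Atp6) rose, whereas mt-Atp8 and mt-Nd4l were called lower, against 0.526% of all genes called higher. mt-Atp6 went there from 5483 and 3679 CPM to 13477 and 11308 CPM, a log2 change of 1.43, while mt-Atp8 went from 144 and 94.9 CPM to 26.8 and 18.4 CPM (-2.46). Both genes are read from a single messenger RNA on which they overlap, and so are mt-Nd4l and mt-Nd4. In dendritic-like cells mt-Nd4l had 279 and 154 against 34.5 and 45.9 CPM (-2.53) while mt-Nd4 had 1560 and 1412 against 3597 and 3145 CPM (1.18). How reads over both genes of such a pair were counted is not given in the sources used here. mt-Atp8 was called lower in T or NK-like cells as well (-4.84), mt-Atp8 and mt-Nd3 in fibroblast-like cells, and mt-Nd4l and mt-Nd3 in endothelial-like cells.

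Genes that build or control the chain were mostly not called. Of 47 tested assembly factors 4 fell in epithelial-like cells, all with transcripts under 800 nt: Pet100 (778 nt, -3.20), a complex IV factor, Uqcc2 (452 nt, -1.92), a complex III factor, Ndufaf8 (604 nt, -1.82), a complex I factor, and Cox20 (471 nt, -1.65), a complex IV factor. The median of the 47 was 0.08. Of 14 tested regulators of mitochondrial biogenesis 0 were called by edgeR, 1 was higher at an unadjusted p under 0.05, and the median was 0.17. Nrf1 (0.17), Gabpa (0.58), Yy1 (0.53), Ppargc1a (0.43) and Esrra (0.17) were all on the positive side without passing the test. Of 17 tricarboxylic acid cycle genes and 17 glycolysis genes 0 were called in epithelial-like cells by edgeR, with medians of -0.14 and -0.05 and 1 and 3 genes at an unadjusted p under 0.05. Outside epithelial-like cells, Pet100 fell in fibroblast-like and dendritic-like cells, Cox17 in fibroblast-like cells, and the glycolysis gene Hk2 in dendritic-like cells.

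Levels of the members also differed between cell classes, tested with the library as a block and clusters drawn without the members. Epithelial-like cells stood above the mean of the other 4 main classes for 67 of 82 members and below it for 1, against 39.7 and 25.2% of all 10692 genes. The median difference over members was 0.73, and over all genes 0.20. By complex, 34 of 38 members were higher for complex I, 13 of 17 for complex V, 11 of 13 for complex IV, 6 of 9 for complex III and 2 of 4 for complex II. With the length trend taken out, 31 of 82 members were higher and 8 lower, against 34.2 and 27.8% of all genes, so the share of members called higher was then near the background. The deepest cells were the epithelial-like ones, with a median of 16021 UMIs against 673.5 in neutrophil-like cells, and the part of depth in these differences was not tested.

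Cyc1 had 206 and 168 CPM (vehicle) against 257 and 170 CPM (TAK-981) in epithelial-like cells, above each of the 16 values of the other classes, which ran from 37.6 to 146 CPM (difference 1.34 ± 0.15 SE in log2, edgeR adjusted p = 1.31e-07). Among members with a mean log2 CPM of at least 5, Ndufa4 had the largest positive difference in epithelial-like cells (1.48 ± 0.20 SE, adjusted p = 1.57e-06), at 1079 and 876 CPM (vehicle) against 376 and 382 CPM (TAK-981). Ndufv1 (1.30) and Ndufa9 (1.23) were higher there as well. The exception was Ndufb1-ps, lower in epithelial-like cells (-0.65) and higher in macrophage-like (0.70) and neutrophil-like cells (0.49).

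Neutrophil-like cells were at the other end, with 52 of 82 members below the mean of the other classes and 1 above it, against 22 and 21.5% of all genes, and a median difference of -0.71. Ndufa5 (-1.98), Ndufa9 (-1.91), Ndufs3 (-1.60), Ndufa10 (-1.52) and Atp5g3 (-1.51) differed most. Ndufa9 had 11.6, 3.59, 26.2 and 33.5 CPM in the 4 neutrophil-like sums and from 74.7 to 126 CPM in the epithelial-like ones, without overlap. The neutrophil-like values rest on few UMIs, from cells with a median depth of 673.5 UMIs. Macrophage-like cells had 21 members higher and 1 lower (background 26.4 and 15.3%), among them Ndufb1-ps (0.70), Ndufc1 (0.69), Sdhd (0.68) and Sdhc (0.65), fibroblast-like cells 7 and 3 (26 and 17%), and T or NK-like cells 1 and 9 (13.4 and 14.8%). The single member higher in T or NK-like cells was Uqcrh (0.61). With each library left out in turn (vehicle 1 and 2, TAK-981 1 and 2), 7, 12, 14 and 9 members were higher in macrophage-like cells and 0, 1, 8 and 5 lower in T or NK-like cells. In fibroblast-like cells 0 were lower without either vehicle library or without TAK-981 2.

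Some subunits exist in forms bound to a tissue, and those were found in few classes. Ndufa4l2, a relative of Ndufa4 that is induced by low oxygen, gave 1594 of its 1665 UMIs in fibroblast-like cells, with 171 and 397 CPM (vehicle) against 217 and 435 CPM (TAK-981), and a UMI in 51.6% of cells. In epithelial-like cells it stood at 0.35% of cells in spite of a median depth of 16021 UMIs against 5636. Cox4i2, the form of Cox4i1 linked to oxygen sensing, gave 283 of 385 UMIs in fibroblast-like cells. Cox6a2, the muscle form of Cox6a1, gave 73 of 152 UMIs in dendritic-like cells, from 23 of 335 cells. Cox7a1 gave 675 of 866 UMIs in epithelial-like cells but at only 6.92 CPM. Pooled over both groups, this was close to 6.81 CPM in dendritic-like, 5.47 CPM in macrophage-like and 8.68 CPM in unnamed cells. However, Cox7a1 fell under TAK-981 in epithelial-like cells and the groups make up unlike parts of each class, so no order is read from it. Cox6b2, the testis form of Cox6b1, had 146 UMIs in all. Of these, 70 were in the many macrophage-like cells and 21 in 15 erythroid-like cells, all of vehicle 1. Per UMI of the class it was highest in the few erythroid-like cells, at 202 CPM. Cox6b2 was at 3.95 CPM in macrophage-like cells, below 9.84 CPM in dendritic-like and 7.35 CPM in fibroblast-like cells.

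**Figure D5:**
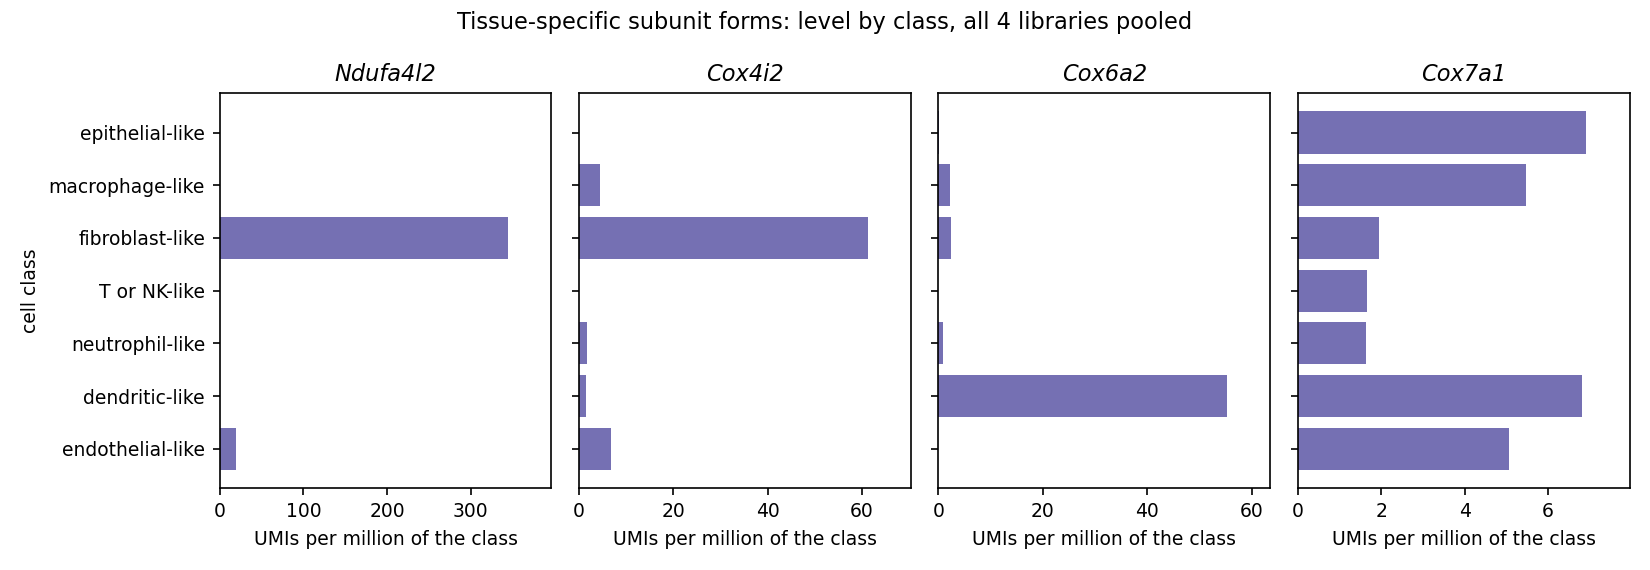
Level of 4 tissue-specific subunit forms (x axis, CPM of all UMIs of the class, libraries pooled) in each cell class (y axis), 1 panel per gene with its own scale. Ndufa4l2 and Cox4i2 stand out in fibroblast-like cells (345 and 61.2) and Cox6a2 in dendritic-like cells (55.2). Cox7a1 is low in each class when vehicle and TAK-981 libraries are pooled.

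Within the fibroblast-like class both genes were found more often in cells with a UMI of Rgs5, a pericyte marker, a split chosen after the data were seen. Ndufa4l2 was found in 75.0, 88.2, 100 and 100% of 8, 17, 10 and 14 cells with Rgs5 (vehicle 1 and 2, TAK-981 1 and 2), and in 25.8, 45.7, 58.2 and 67.0% of the cells without it. Cox4i2 was found in 67.3% of the 49 cells with Rgs5 and 16.7% of the 474 without it. Cells with Rgs5 were shallower in each library, with median depths of 3351.5, 3557, 9605.5 and 8091 UMIs against 5948, 4154, 17561 and 13545 UMIs in cells without it. The fibroblast gene Pdgfra went the other way, at 4.08 and 38.2% of cells. The higher share held in each of the 4 libraries for Ndufa4l2, and these shares of cells carry counting error only and were not tested.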

How the data were processed

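The authors deposited whole UMI counts for each gene in each barcode, from 10x 3' v3.1 libraries per the labels. The submitters' processing notes name Cell Ranger 6.1.2 and mm10. Members and gene lists were chosen with earlier results of these data known. Kept barcodes had 500 UMIs or more, 250 genes or more and no more than 20% mitochondrial UMIs, and likely doublets were removed at 0.8% per 1000 cells by Scrublet score. Cells were clustered with scanpy 1.11.5 (2000 variable genes without members, 30 components, 15 neighbours, Leiden resolution 1.0, seed 0) in Python 3.11.15. Counts were summed per class and library and tested with edgeR 4.0.16 in R 4.3.3 (TMM, low counts filtered, Benjamini-Hochberg at 0.05 over all genes), with DESeq2 1.42.0 as an alternative. Classes needed 30 cells in each library, and dendritic-like and endothelial-like cells, added with a limit of 15, stayed out of the joint fit. CPM are scaled by TMM within a class, or over the 5 main classes where classes are compared. The named members were those called with log2 CPM of at least 5 and no overlap, ranked by fold change, up to 12 in epithelial-like and 5 in other classes, besides core subunits and subunit forms listed by name. The scripts were tested on simulated data. Deposited count columns not used numbered 0. Values of 1 member are not reported here by name.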

Additional observations from a re-analysis of the deposited data

How the results depend on the processing

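Of 217 counts recomputed under alternatives, 147 stayed within 1.5 times the main count, and 0 of all values recomputed turned a called direction. With the length trend removed, the members called, in either direction here and below, were 7 in epithelial-like (38 in the main fit), 0 in fibroblast-like (20), 2 in dendritic-like (23) and 3 in endothelial-like cells (12). All genes called lower and higher in these fits were 36 and 23 of 12641, 0 and 0 of 8989, 31 and 5 of 3424, and 32 and 37 of 4680. Drawn on the shortest transcript, the trend left 0 in fibroblast-like and 10 in dendritic-like cells, against 0 of 8989 and 80 of 3424 genes called lower. In the comparison of classes, removing the trend on median length left 31 members higher and 8 lower in epithelial-like, 11 and 1 in fibroblast-like, 3 lower in T or NK-like and 2 higher in neutrophil-like cells. Of all 10692 genes, 3654 and 2972, 2833 and 1766, 1382 and 2369 were called in the same order. In macrophage-like cells, with 0 in the main fit, 34 were called by DESeq2, 39 without the filter on low counts, 9 with members in the clustering and 18 with cells thinned to equal depth. All genes called lower and higher there were 205 and 53 of 10604, 434 and 256 of 16975, 46 and 7 of 10384, and 80 and 14 of 9479. In T or NK-like cells DESeq2 called 6, the fit without the filter 11, the fit without doublet removal 8 and thinned cells 1. For the last 3 of these, all genes called lower and higher were 68 and 53 of 13646, 28 and 4 of 4578, and 4 and 0 of 2602. In neutrophil-like cells the fit without the filter called 1, and in endothelial-like cells it called 23, with 19 at 1000 UMIs per cell. All genes called lower and higher were 47 and 79 of 12752, 185 and 184 of 13880, and 76 and 48 of 4642.

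With members in the clustering, 13 were higher and 2 lower in macrophage-like, 12 and 1 in fibroblast-like, 2 and 2 in T or NK-like, and 0 higher in neutrophil-like cells. Of all 10628 genes, 2607 and 1883, 3193 and 1554, 1834 and 1481, and 2069 were called so. In vehicle libraries only, 0 were lower in macrophage-like, 1 lower in fibroblast-like, 0 higher and 14 lower in T or NK-like, and 2 higher in neutrophil-like cells. Of all 9937 genes, 801, 1161, 847 and 702, and 2203 were called so. Leaving out each library in turn gave 24 to 37 called members in epithelial-like, 0 to 9 in macrophage-like, 0 to 13 in fibroblast-like, 8 to 15 in T or NK-like, 0 to 2 in neutrophil-like, 12 to 30 in dendritic-like and 12 to 31 in endothelial-like cells. The 1 library left in a group is then assumed to vary like the other group. For differences of effect it gave member medians from -0.91 to -0.75 against T or NK-like and from -0.76 to -0.22 against neutrophil-like cells. Between classes it gave 7 to 14 higher and 0 to 2 lower in macrophage-like, 0 to 3 lower in fibroblast-like, 0 to 8 lower in T or NK-like, and 0 to 2 higher in neutrophil-like cells.

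The replicate numbers of the labels did not pair the libraries: the correlation of deviations lay between -0.18 and -0.05 over the 7 classes. With the replicate block, 38 members were called in epithelial-like, 1 in neutrophil-like and 4 in endothelial-like cells. All genes called lower and higher with it were 311 and 201 of 12643, 27 and 60 of 3114, and 25 and 20 of 4680. With the numbers crossed, an alternative added after seeing the data, 26 were called in dendritic-like and 21 in endothelial-like cells, whose correlation was under -0.1 and prompted it. All genes called lower and higher in that fit were 134 and 25 of 3424, and 119 and 78 of 4680. In the other classes that fit called 39 members lower in epithelial-like, 23 in macrophage-like, 22 in fibroblast-like and 0 in T or NK-like and neutrophil-like cells. Of all genes it called lower 343 of 12643, 123 of 10604, 92 of 8989, 1 of 4204 and 0 of 3114. The cause of these moves was not tested.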
